A study of Mus musculus with 64 samples.

Results

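The 3 RNA features annotated as Gm26917, Gm42418 and Gm24187 were followed across mouse embryonic stem cells in which 1 subunit at a time of Pol II, the RNA polymerase that makes mRNA, had been degraded. They are 3 of the 55335 genes in the count table and were selected by symbol. The choice was based on measured values of these same libraries, namely their levels over all lines and times, so those levels are given as a description with no test. In mouse V6.5 embryonic stem cells, each of 12 lines carried an auxin-inducible degron on 1 Pol II subunit (RPB1 to RPB12), whereas cells labelled WT, wild type, carried none. A degron is a tag that leads to destruction of the protein when the plant receptor OsTir1 is made and its ligand IAA, an auxin, is added. All cells were kept with the inhibitors CHIR99021 and PD0325901, and per the labels doxycycline (2 µg/ml in the protocol, 1 µg/ml in the series text) was given for 12 h to induce OsTir1. Groups were each of the 13 lines after 12 h of 500 µM IAA and the same line untreated (26 groups, 52 libraries, stated to be poly(A) libraries), and the RPB1, RPB3 and RPB6 lines at 1 h and at 0 h of IAA (6 groups, 12 libraries, library type not given in the sources used here). Each group had 2 libraries, and the labels do not say that they came from separate cultures, that a line is more than 1 clone, or that WT cells held OsTir1.

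Ribosomal RNA is made by RNA polymerase I as 1 long precursor. In it an external spacer is followed by the 18S rRNA of the small ribosomal subunit, an internal spacer, the 5.8S rRNA, another internal spacer and the 28S rRNA of the large subunit, and nucleases remove the spacers in the nucleolus. Ribosomal RNA normally has no poly(A) tail, and adenylated rRNA fragments are known mainly as substrates of nuclear decay. RPB5, RPB6, RPB8, RPB10 and RPB12 are subunits that Pol II shares with RNA polymerases I and III. RPB1 and RPB2 form the catalytic centre of Pol II, RPB3 and RPB11 its assembly platform, RPB4 and RPB7 its stalk, and RPB9 a peripheral subunit linked to fidelity.

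The sequences come from the GENCODE M21 transcripts on mm10 and show what the 3 features are. Gm26917 (ENSMUSG00000097971, lincRNA, plus strand, 3329 bases in 1 exonic span with 2 annotated transcripts) lies at chr17:39843013-39846341, and it ends 11 bases before a copy of 18S rRNA. That copy is read from the 1849-base transcript of CT010467.1 (biotype rRNA, chr17:39846353-39848201), which is annotated on the minus strand, so that its reverse complement is 18S rRNA in the direction of Gm26917. Gm26917 thus occupies the place that the 5′ external spacer has in an rRNA precursor and overlaps no other annotated gene. Gm42418 (ENSMUSG00000098178, lincRNA, plus strand, 1831 bases, chr17:39846958-39848788) starts 605 bases into the 18S copy, shares 1244 bases with it and runs 587 bases past its end, where an rRNA precursor has its first internal spacer. The first 60 bases of the 18S copy, the first 60 of Gm42418 (capitals, inside the 18S copy) and the stretch of Gm42418 across the 18S end (capitals inside the copy, lower case past it) are shown, with the last 120 bases of Gm26917 before them.
Gm26917, last bases: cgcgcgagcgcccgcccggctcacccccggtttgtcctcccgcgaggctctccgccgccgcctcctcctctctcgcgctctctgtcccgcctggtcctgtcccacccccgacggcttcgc
18S copy, first bases: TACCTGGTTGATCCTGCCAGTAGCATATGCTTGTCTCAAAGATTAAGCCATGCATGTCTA
Gm42418, first bases: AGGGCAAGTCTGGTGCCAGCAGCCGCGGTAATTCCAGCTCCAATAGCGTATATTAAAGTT
Gm42418 across the 18S end: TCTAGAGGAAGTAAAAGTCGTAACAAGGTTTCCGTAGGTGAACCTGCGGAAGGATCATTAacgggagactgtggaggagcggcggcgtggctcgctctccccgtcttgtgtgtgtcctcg

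Gm24187 (ENSMUSG00000088609) does not lie at this locus. It is a 57-base gene of biotype miRNA on the minus strand of chr13:9834469-9834525, overlaps no annotated gene, and had no alignment of at least 30 bases to a transcript annotated as rRNA, so the annotation used here does not show that it overlaps an rRNA copy. No 28S sequence was used here. It belongs to a family of 6 annotated miRNA genes with nearly the same sequence, 5 of which have 57 bases and 1 (Gm25911) 56. Relative to Gm24187, with positions counted from 1 at its 5′ end, Gm23935 (chr16:11144125-11144181), Gm24245 (chr4:139338304-139338360) and Gm24270 (chr9:56223715-56223771) each carry the substitution A11G, and Gm23388 (chr8:85112012-85112068) carries G2T, A11G, C16G, G21T and G48T. The 2 sequences below show this with the differing base of Gm23935 in capitals. Over all 64 libraries Gm24187 received 8038 counts and at least 1 in each of the 64, against 26 for Gm24270, 2 for Gm25911 and 0 for the other three.
Gm24187: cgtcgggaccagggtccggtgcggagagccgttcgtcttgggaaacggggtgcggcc
Gm23935: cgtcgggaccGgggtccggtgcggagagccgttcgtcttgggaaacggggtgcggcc

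All 3 features are rich in G and C. The GC content was 69.1% in Gm26917, 60.2% in Gm42418 and 71.9% in Gm24187, against a median of 49.2% over 141767 annotated transcripts, of which 99.8%, 94.9% and 99.9% have a lower GC content than those 3 in that order. Within Gm26917 11 consecutive windows of equal length ran from 62% to 73%. Only 9 of the 1831 exon bases of Gm42418 are not also exon bases of CT010467.1 or of AY036118 (lincRNA, minus strand, chr17:39847113-39848035), and AY036118 had 0 counts in the 64 libraries. The sources used here do not give the strand setting or how overlapping features were handled, so reads of Gm42418 and CT010467.1 cannot be told apart, whereas all 3329 bases of Gm26917 are its own.

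**Figure D1:**
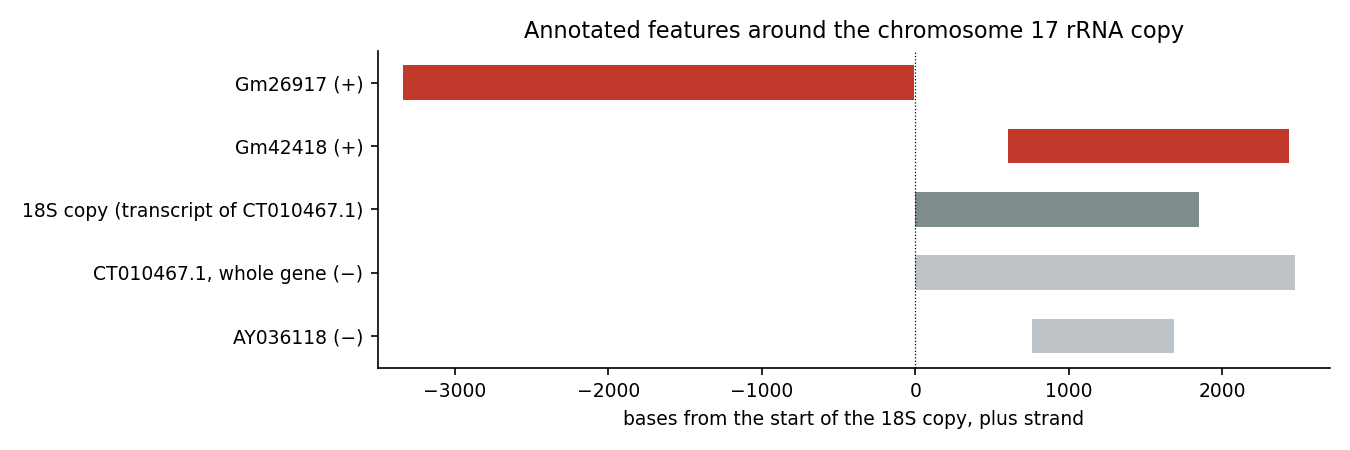
Annotated features around the chromosome 17 rRNA copy; the x axis gives bases from the start of the 18S copy on the plus strand, and each bar is 1 feature with its strand. Gm26917 ends 11 bases before the 18S copy, and Gm42418 covers its last 1244 bases and 587 more.

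The 52 libraries of the 12 h set held 3399838 to 7164928 counts each, and the 12 libraries of the early set (0 h and 1 h) held 8598431 to 13281252. Levels are counts per 1000000 counts of a library (CPM). The 10 stem cell markers summed to 3459 to 6882 CPM over the 52 libraries of the 12 h set, while fibroblast, primitive endoderm and neuroectoderm markers summed to at most 24.2 CPM, so the cells carried the markers of their label as a sum. Of 130 tests of single stem cell markers over the 13 comparisons, 76 were called lower after IAA and 13 higher, beside 19.8% and 19.1% of all genes. In RPB2 8 of the 10 were called lower and 2 higher, beside 34.0% and 27.9% of all genes. Among those lower in RPB2, Sox2 had 15.2 and 15.3 CPM with IAA and 435 and 389 CPM untreated. Zfp42 had 33.4 and 35.1 CPM with IAA and 966 and 1065 CPM untreated. The part of this change in the features' levels was not tested. The counts do not measure the degraded proteins. Counts are shares of a library, so less mRNA per cell and more rRNA-derived RNA per cell cannot be told apart. Over 17928 tested genes the median log2 ratio of CPM, IAA over untreated, was -0.998 in RPB2, -0.76 in RPB6 and between -0.15 and 0.24 in the other lines.

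In the untreated cells of the 12 h set all 3 features were detected in every library. Gm26917 had 74.3 CPM in the lowest, 215 in the median and 393 in the highest of the 26 untreated libraries, Gm42418 had 7.81, 57.9 and 114 CPM, and Gm24187 had 1.31, 3.31 and 10.2 CPM (8 to 49 counts). Per kilobase of exon, the median untreated level was 64.6 CPM for Gm26917, 31.6 CPM for Gm42418 and 58.1 CPM for Gm24187. The sum of the 3 was highest in untreated RPB12, at 448 and 476 CPM, which lay above both untreated WT libraries (336 and 202 CPM). The other 11 untreated degron lines overlapped WT, and their means ran from 162 CPM in RPB5 to 331 CPM in RPB11. In both of these lines the 2 untreated libraries differed widely, at 86.7 and 237 CPM in RPB5 and at 185 and 477 CPM in RPB11. Gm24187 went the other way in untreated RPB5, with 4.64 CPM in the library that was low for the sum and 1.31 CPM in the other.

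After 12 h of IAA the features stood far above the untreated level in RPB2 and, in CPM, above it in 6 other lines, of which RPB6 depends on the scaling. In RPB10 Gm26917 and Gm42418 lay below it. Of the 39 pairs of a member and a line, both IAA libraries lay above both untreated libraries in 23, below in 3, and the groups overlapped in 13. The same count over all tested genes and the 13 lines gave 34.3% above and 32.9% below, so lack of overlap alone is common here, and since the members were chosen on these values nothing is read from their count.

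The RPB2 line after 12 h of IAA had the highest levels in the series. Gm26917 had 13042 and 13523 CPM in RPB2 cells with IAA, against 222 and 151 CPM in untreated RPB2 cells, a ratio of 71.2. Gm42418 had 1833 and 1866 CPM with IAA and 43.1 and 44.0 CPM untreated, a ratio of 42.5. For Gm24187 the values were 380 and 396 CPM with IAA and 2.13 and 3.29 CPM untreated, a ratio of 143. Together the 3 features took 1.53% and 1.58% of all counts after IAA, against 0.0268% and 0.0198% untreated, which is a log2 ratio of 6.06 for the sum. In counts these were 50713 and 53874 for Gm26917 with IAA and 1150 and 1055 untreated, so counting error is small. The median gene had a log2 ratio of -0.998 in the same comparison, and mitochondrial mRNAs, which are made by another polymerase, took 3.44% and 3.25% of counts with IAA and 1.24% and 1.37% untreated. Scaled to mitochondrial mRNA counts, the log2 ratio of the sum was 4.69.

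RPB8 and RPB7 came next. Gm26917 had 1675 and 1868 CPM in RPB8 cells with IAA and 320 and 152 CPM untreated, and it had 1294 and 1349 CPM in RPB7 cells with IAA and 204 and 151 CPM untreated. Gm42418 was at 159 and 233 CPM in RPB8 with IAA and at 54.8 and 20.002 CPM untreated, and at 366 and 354 CPM in RPB7 with IAA and at 58.1 and 98.1 CPM untreated. The order of the lines in CPM with IAA thus differed between these members, with RPB8 above RPB7 for Gm26917 and RPB7 above RPB8 for Gm42418, in all IAA libraries. The ratios to untreated were 7.50 in RPB8 and 7.43 in RPB7 for Gm26917, and 5.25 in RPB8 and 4.61 in RPB7 for Gm42418. The untreated RPB8 libraries differed widely, so no order of the 2 lines is read from these ratios. Scaled to mitochondrial mRNA counts, the log2 ratio of Gm26917 was 1.52 in RPB8 and 2.40 in RPB7. That of Gm42418 was 0.99 in RPB8 and 1.69 in RPB7. Gm24187 reached 209 and 231 CPM in RPB8 with IAA, against 2.66 and 3.33 CPM untreated, a ratio of 73.5. In RPB7 it had 78.9 and 64.4 CPM with IAA and 4.75 and 8.03 CPM untreated, a ratio of 11.2. Mitochondrial mRNAs again took a larger share in RPB8, at 3.61% and 3.80% of counts with IAA and 1.35% and 1.58% untreated, and scaled to them the log2 ratio of the sum was 1.59, against 2.98 in CPM. Their part in the result was not tested.

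In RPB1, RPB3, RPB9 and RPB6 all 3 features had both IAA libraries above both untreated ones. Gm26917 had 584 and 897 CPM in RPB1 with IAA and 176 and 232 CPM untreated, 940 and 635 CPM in RPB3 with IAA and 271 and 218 CPM untreated, 676 and 722 CPM in RPB9 with IAA and 217 and 256 CPM untreated, and 518 and 452 CPM in RPB6 with IAA and 200 and 278 CPM untreated. The ratios of the means were 3.63 in RPB1, 3.22 in RPB3, 2.96 in RPB9 and 2.03 in RPB6. Gm42418 moved by similar ratios, 3.02 in RPB1, 2.85 in RPB3, 2.59 in RPB9 and 2.22 in RPB6. Gm24187 moved by more in each of these lines, with ratios of 11.5, 18.3, 13.2 and 18.9 in that order of lines. Its IAA levels were nearly the same in the 4 lines, between 26.9 and 36.0 CPM in the 8 libraries, against 1.46 to 3.17 CPM untreated.

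The RPB6 result rests on the scaling. There the log2 ratio of the sum was 1.12 in CPM of all counts and 1.74 with TMM-scaled library sizes, but -0.23 when scaled to mitochondrial mRNA counts, which took 2.73% and 2.66% of all counts with IAA and 1.10% and 1.04% untreated. Gm24187 in RPB6 kept its direction under the 4 scalings, since its log2 ratio in CPM was 4.24. In RPB3 the IAA library with the higher sum, replicate 1, had 0.534% of its counts in mitochondrial mRNAs and the other 1.72%, against 1.27% and 1.30% untreated. Without that library the log2 ratio of the sum in RPB3 was 1.37, against 1.69 with both, and scaled to mitochondrial mRNA counts it was 2.49 with both. In RPB1, where these mRNAs took 2.30% and 2.04% of counts with IAA and 1.27% and 1.29% untreated, it was 1.83 in CPM and 1.09 when scaled to mitochondrial mRNA counts.

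The remaining lines were mixed. In RPB11 Gm26917 overlapped, at 438 and 332 CPM with IAA and 156 and 393 CPM untreated. Gm24187 lay above there, at 12.1 and 12.6 CPM with IAA and 4.01 and 3.10 CPM untreated, a ratio of 3.48. Gm42418 lay above by a narrow gap, at 107 and 82.9 CPM with IAA and 25.5 and 81.4 CPM untreated. In RPB4 all 3 overlapped, with Gm26917 at 178 and 226 CPM with IAA and 213 and 160 CPM untreated. RPB12 overlapped for each feature as well, with Gm26917 at 283 and 331 CPM with IAA and 323 and 363 CPM untreated, although their sum lay below, at 402 and 447 CPM with IAA and 448 and 476 CPM untreated, a log2 ratio of -0.12. RPB5 also overlapped in all 3, with sums of 121 and 133 CPM with IAA and 86.7 and 237 CPM untreated. Its mean sum with IAA was the lowest of the treated lines, but it overlapped RPB10 with IAA, at 154 and 129 CPM.

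RPB10 was the line in which both features of the chromosome 17 locus lay below untreated in both IAA libraries. Their means were lower with IAA in WT cells too, with overlapping groups. Gm26917 had 113 and 90.3 CPM with IAA and 217 and 181 CPM untreated, a log2 ratio of -0.97, and Gm42418 had 37.5 and 34.9 CPM with IAA and 56.5 and 59.3 CPM untreated, a log2 ratio of -0.68. Gm24187 overlapped in RPB10, at 3.67 and 3.34 CPM with IAA and 4.73 and 3.41 CPM untreated. In WT cells IAA left Gm26917 overlapping, at 181 and 118 CPM with IAA and 274 and 169 CPM untreated, a log2 ratio of -0.57. Gm42418 overlapped as well, at 41.2 and 24.0 CPM with IAA and 57.8 and 26.9 CPM untreated, a log2 ratio of -0.38. The log2 ratio of the sum was -0.55 in WT and -0.89 in RPB10, and whether these differ was not tested. Gm24187 was lower in WT with IAA, at 1.54 and 2.06 CPM against 4.61 and 6.05 CPM untreated, from 7 and 9 counts with IAA and 24 and 31 untreated.

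**Figure D2:**
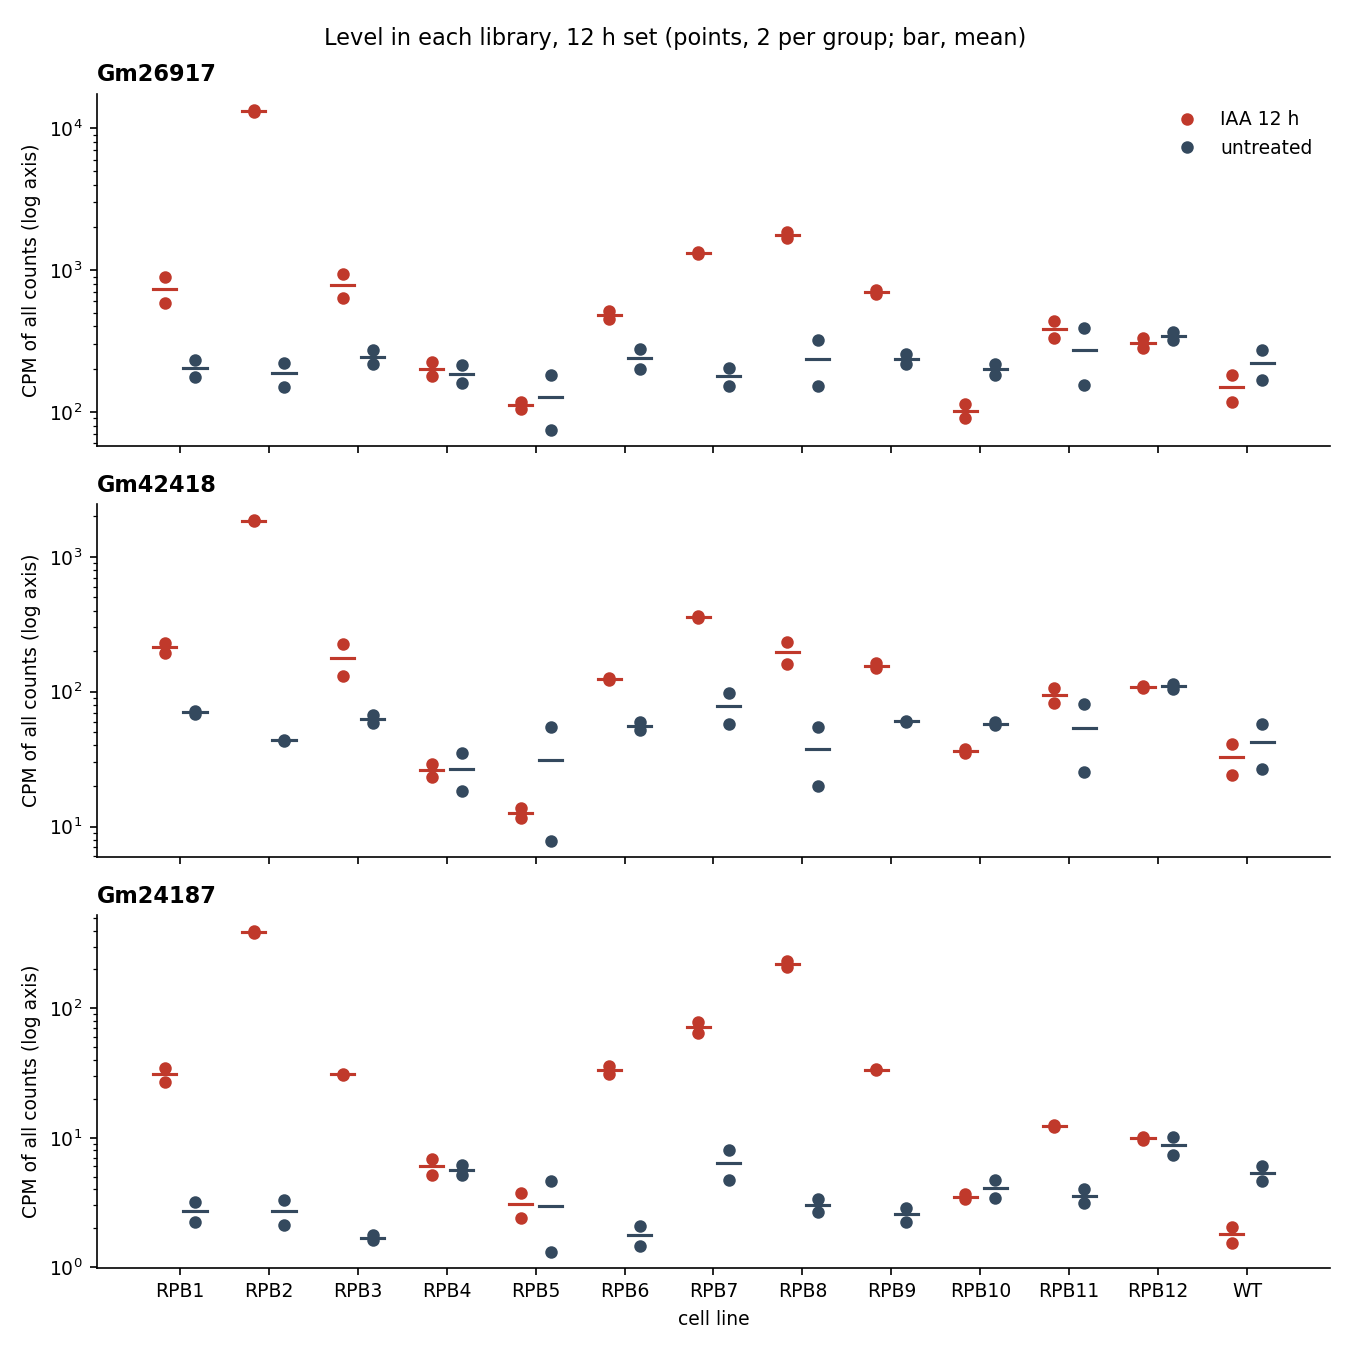
CPM of all counts on a log axis for Gm26917, Gm42418 and Gm24187 by line; points are the 2 libraries of a group, with IAA left of untreated, and bars are means. RPB2 with IAA stands apart for all 3, and RPB10 has the lowest mean of the IAA groups for Gm26917.

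Ordered by the sum after 12 h of IAA, the lines ran RPB2, RPB8, RPB7, RPB3, RPB1, RPB9, RPB6, RPB11, RPB12, RPB4, WT, RPB10 and RPB5. RPB2, RPB8 and RPB7 each lay above the next line in both libraries. RPB3 and RPB1 overlapped each other, as did RPB1 and RPB9, while RPB9 lay above RPB6 and RPB6 above RPB11. RPB11 and RPB12 overlapped, RPB12 lay above RPB4, and from RPB4 down each line overlapped the next. Among the subunits shared with RNA polymerases I and III the log2 ratio of the sum ran from -0.89 in RPB10 to 2.98 in RPB8, with 1.12 in RPB6, -0.12 in RPB12 and overlapping groups in RPB5.

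**Figure D3:**
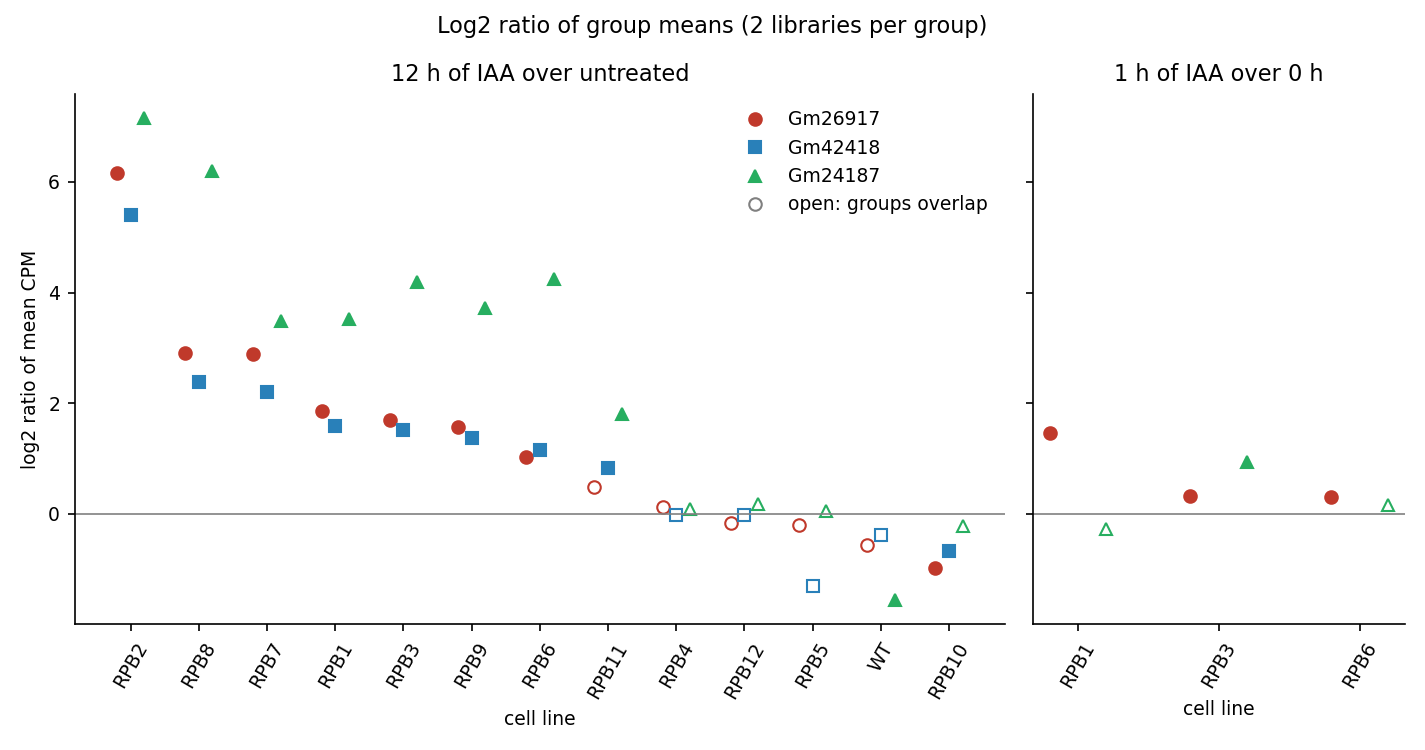
Log2 ratio of group mean CPM, IAA over untreated at 12 h (left, lines ordered by the summed ratio) and 1 h over 0 h (right), for each feature; open symbols mark groups that overlap. Gm24187 lies above the other two in each of the 7 lines in which all 3 were above untreated, and Gm42418 has no value at 1 h because it had 0 counts.

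The features did not move in a fixed proportion. Gm24187 had 12.5 and 12.4 counts per 100 counts of Gm26917 in RPB8 with IAA, against 0.831 and 2.19 untreated, which was the highest proportion of the treated lines. In RPB6 the values were 5.97 and 7.95 with IAA and 0.733 and 0.745 untreated, and in RPB2 they were 2.91 and 2.93 with IAA and 0.957 and 2.18 untreated. Over the 13 lines this proportion was higher in both IAA libraries in 8, overlapped in 5 and was lower in 0. Gm42418 per 100 counts of Gm26917 instead was lower in both IAA libraries in 5 lines, higher in 2 and overlapped in 6. In RPB2 it was 14.1 and 13.8 after IAA and 19.4 and 29.2 untreated.

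Per kilobase of exon, Gm24187 made up 85.8% of the sum of the 3 features in RPB8 with IAA and a median of 58.3% over the 13 IAA groups, against a median of 38.5% over the 13 untreated groups. By counts it made up 10.1% in RPB8 with IAA and 1.23% at the untreated median. Over the 52 libraries the Pearson correlation of log2(CPM + 1) was 0.93 between Gm26917 and Gm42418 and 0.90 between Gm26917 and Gm24187. Within the 26 untreated libraries these were 0.76 and -0.05, where Gm24187 had 8 to 49 counts. Libraries share depth and the features share base composition, so these are descriptions.

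**Figure D4:**
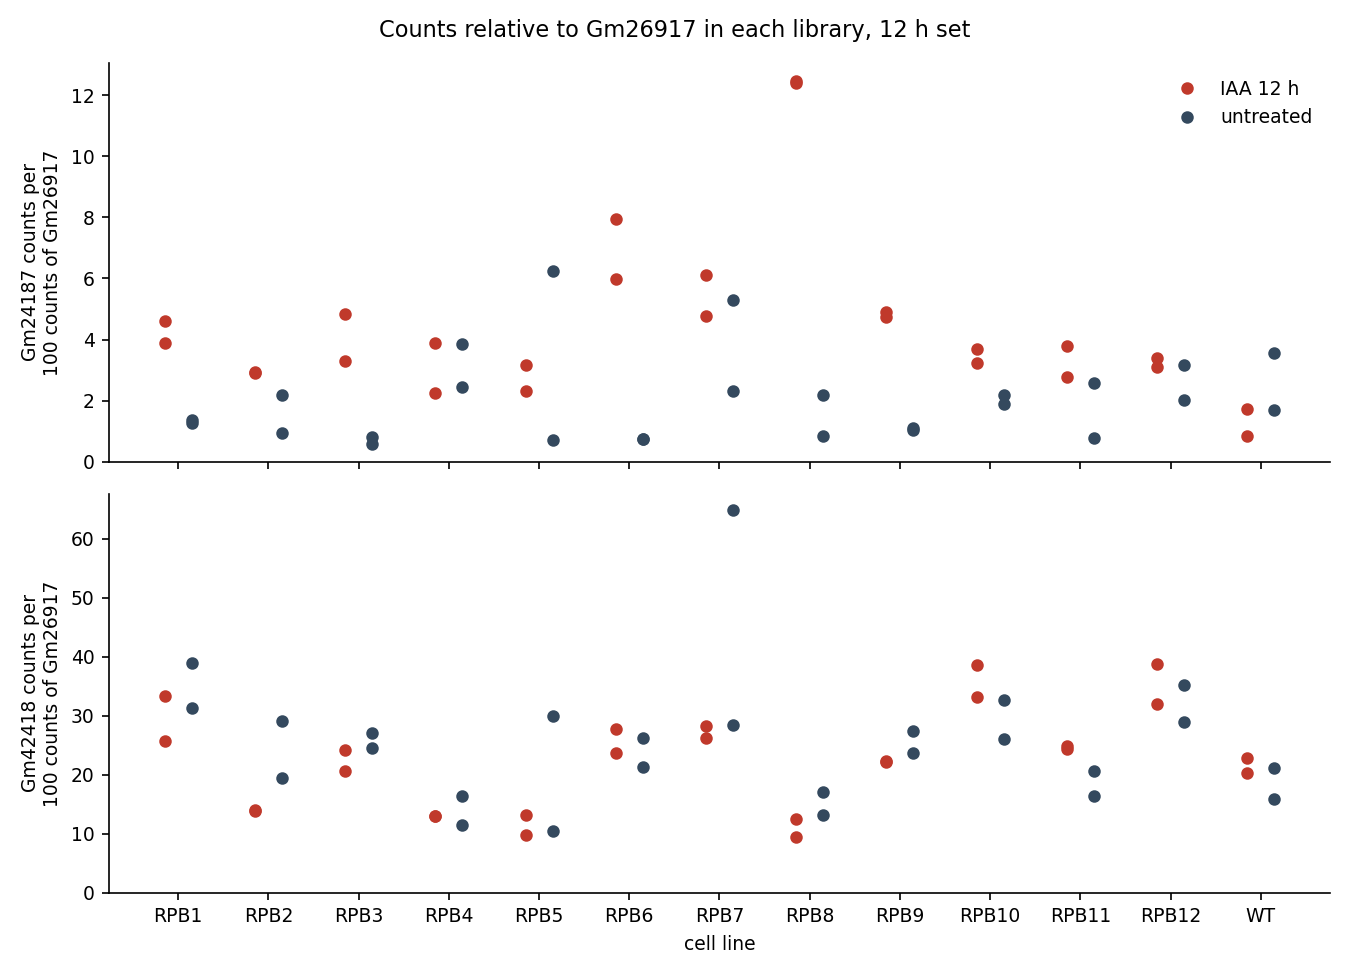
Counts of Gm24187 (top) and Gm42418 (bottom) per 100 counts of Gm26917 in each library of the 12 h set, with IAA left of untreated. Gm24187 in RPB8 with IAA sits at 12.5 and 12.4, above every other library, and Gm42418 in 1 untreated RPB7 library reaches 64.8.

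After 1 h of IAA Gm26917 was already higher in RPB1, RPB3 and RPB6. It had 520 and 531 CPM in RPB1 at 1 h and 187 and 195 CPM at 0 h, a ratio of 2.75. In RPB3 it had 356 and 366 CPM at 1 h and 287 and 286 CPM at 0 h, and in RPB6 it had 255 and 245 CPM at 1 h and 211 and 193 CPM at 0 h, ratios of 1.26 and 1.24. Replicates were close, and no group overlapped its 0 h group for this feature. The median gene had a log2 ratio of -0.02 in RPB1, 0.04 in RPB3 and -0.01 in RPB6. Over all 15658 tested genes and the 3 lines, 24.8% had both 1 h libraries above both 0 h libraries and 23.6% below. Of the 9 pairs of a member and a line 4 lay above and 5 overlapped, a count that the choice of members bears on. The 3 pairs of Gm42418 had 0 counts in both groups and could only overlap.

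Gm24187 did not move with Gm26917 at this time in RPB1. It had 4.55 and 2.57 CPM at 1 h and 4.12 and 4.53 CPM at 0 h (counts between 14 and 53 over the 12 libraries), and its count per 100 of Gm26917 was 0.875 and 0.484 at 1 h and 2.21 and 2.32 at 0 h. In RPB3 it was higher, at 2.87 and 3.99 CPM at 1 h and 1.505 and 2.09 CPM at 0 h. In RPB6 it overlapped, at 1.87 and 2.91 CPM at 1 h and 1.88 and 2.38 CPM at 0 h. The 12 h comparison of RPB1, in other libraries, had shown ratios of 3.63 for Gm26917 and 11.5 for Gm24187.

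Gm42418 had 0 counts in all 12 libraries of the 0 h and 1 h set, which allows at most 0.226 to 0.349 CPM per library (3 counts, counting error only). CT010467.1, which shares its bases, had 2 to 18 counts there, or 0.151 to 1.74 CPM. In the 12 h set Gm42418 had at least 37 counts in every untreated library. Antisense genes as annotated took 0.103% to 0.155% of counts in the 0 h and 1 h libraries, against 1.14% to 1.59% in those of the 12 h set. Of 449 antisense genes with a mean of at least 5 CPM in untreated RPB1, RPB3 and RPB6, 344 were over 10 times lower at 0 h of the same lines, against 151 of 10432 protein-coding genes. Whether the same difference between the library sets set the 0 counts of Gm42418 was not tested, and no time course can be read across the sets.

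**Figure D5:**
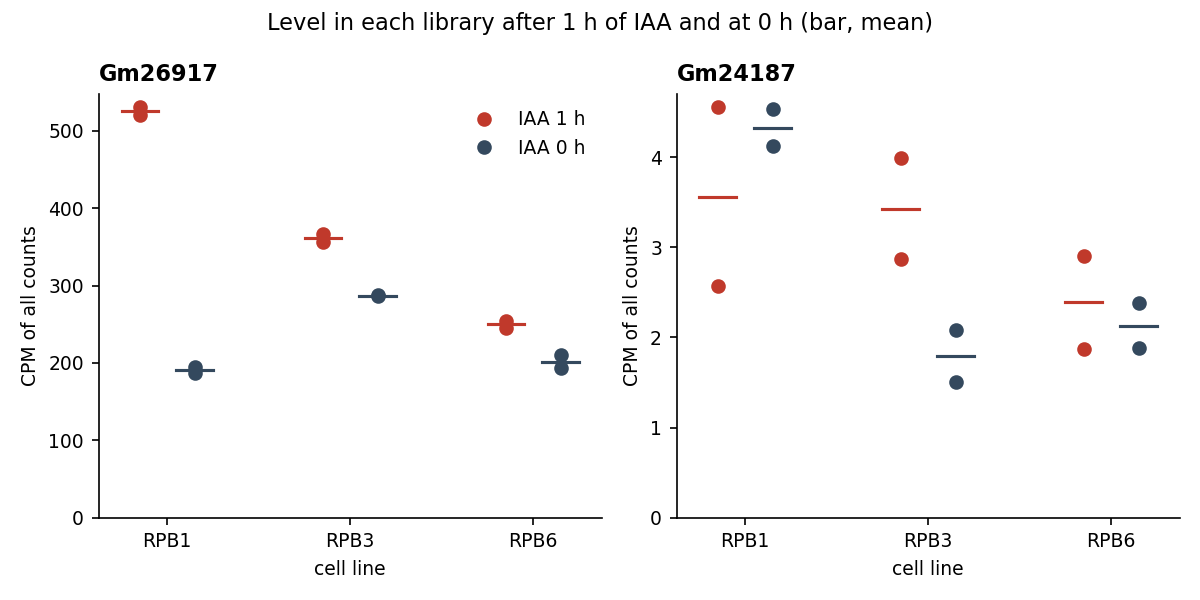
CPM of all counts for Gm26917 (left) and Gm24187 (right) in RPB1, RPB3 and RPB6; points are single libraries, 1 h of IAA left of 0 h, and bars are means. Gm26917 at 1 h lies above 0 h in each line, from 245 to 531 CPM at 1 h against 187 to 287 CPM at 0 h.

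CT010467.1 was the 1 gene with similar sequence that could be tested, and since it shares exon bases with Gm42418 it is no independent measure. It had 2404 and 2582 CPM in RPB2 with IAA and 53.0 and 58.2 CPM untreated, with an edgeR log2 fold change of 6.34 ± 0.36 (SE, adjusted p = 3.50e-20). Over the 13 comparisons it was called higher in 7 (RPB1, RPB2, RPB3, RPB6, RPB7, RPB8 and RPB9) and lower in 2, RPB10 (-0.95 ± 0.37, adjusted p = 0.0389) and RPB5 (-1.34 ± 0.46, adjusted p = 0.0120). The RPB5 call rests on untreated libraries at 13.1 and 63.4 CPM, one of which lies below the IAA libraries at 16.7 and 16.9 CPM. Neither lower call held in every alternative fit: DESeq2 called CT010467.1 lower in 1 comparison, and a fit with a replicate block in 0. Of all genes and the 13 comparisons, 19.1% were called higher and 19.8% lower at an adjusted p under 0.05.

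Genes named from background as carrying rRNA-like stretches in their introns or exons did not follow the features as a group. Their annotated transcripts had no alignment of at least 30 bases to a member. Introns were not compared, so their likeness in sequence to the features was not shown here. Of 78 tests (6 genes in 13 comparisons) 7 (8.97%) were called higher and 30 (38.5%) lower, beside 19.1% and 19.8% of all genes. Cmss1, a small-subunit processome factor, had 50.7 and 42.7 CPM in RPB2 with IAA and 37.5 and 43.2 CPM untreated, with an edgeR log2 fold change of 1.06 ± 0.14 (adjusted p = 5.43e-09), a value on the TMM scale, while its CPM overlapped between the groups. In RPB10 it fell, to 12.2 and 13.9 CPM with IAA, against 30.2 and 30.8 CPM untreated (-1.31 ± 0.17, adjusted p = 1.3e-08). Camk1d, a calmodulin-dependent kinase, was at 5.24 and 4.12 CPM in RPB8 with IAA and at 37.9 and 37.2 CPM untreated, a direction opposite to that of the features in the same libraries. Filip1l rose in RPB8, at 5.77 and 4.12 CPM with IAA and 0.532 and 0.926 CPM untreated (edgeR log2 fold change 2.90 ± 0.54, adjusted p = 9.63e-06). Of the 6 genes, 1 was called higher and 5 lower in RPB8, beside 31.5% and 30.2% of all genes. Lars2, the mitochondrial leucyl-tRNA synthetase, had 24.7 and 25.9 CPM in RPB2 with IAA and 24.6 and 21.6 CPM untreated.

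Other RNAs that mostly lack a long poly(A) tail were called in different shares by class. Of 338 tests of replication-dependent histones, whose mRNAs end in a stem-loop, 105 were called higher and 6 lower, and in RPB2 these were 15 and 0 of 26, beside 27.9% of all genes called higher and 34.0% lower in RPB2. Hist1h3c had 3.60 and 5.77 CPM in RPB2 with IAA and 0.773 and 1.57 CPM untreated (log2 fold change 2.77 ± 0.45, adjusted p = 6.85e-07). Among snRNAs, snoRNAs and similar RNAs 43 of 793 tests (5.42%) were called higher and 149 (18.8%) lower, beside 19.1% and 19.8% of all genes, so the lower share is near the background. Rn7sk, the RNA that holds the kinase P-TEFb inactive, had 7.46 and 5.27 CPM in RPB2 with IAA and 0.193 and 0 CPM untreated, while Snora73b, a small nucleolar RNA made from an intron, had 0.257 and 0.753 CPM with IAA and 12.8 and 9.15 CPM untreated. The mitochondrial rRNAs rose in both RPB2 and RPB10, in which the features stood at opposite ends. mt-Rnr2, the large mitochondrial rRNA, had 844 and 750 CPM in RPB2 with IAA and 351 and 373 CPM untreated (1.99 ± 0.17, adjusted p = 4.96e-14), and 343 and 334 CPM in RPB10 with IAA and 117 and 124 CPM untreated (1.40 ± 0.18, adjusted p = 1.78e-08).

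Genes of the machinery that makes, processes and degrades rRNA moved in both directions in RPB2. In RPB10 46.7% of the rRNA processing genes were called lower, beside 21.2% of all genes. The RNA polymerase I machinery and the genes of nuclear RNA decay and adenylation, at 25% each, were near that background. edgeR fold changes are on the TMM scale, on which the median gene had a log2 fold change of -0.19 in RPB2, against -0.998 in CPM. Of the 20 genes of the RNA polymerase I machinery, 9 were called higher and 10 lower in RPB2, and 2 higher and 5 lower in RPB10, where 18.2% of all genes were called higher and 21.2% lower. The list includes the genes of the subunits shared with Pol II. Polr2l, the gene of RPB10 itself, was 1 of the 2 called higher in RPB10. It had 52.4 and 52.7 CPM with IAA and 26.7 and 28.2 CPM untreated. Twistnb, an RNA polymerase I subunit, fell to 2.57 and 3.51 CPM in RPB2 with IAA, against 62.3 and 66.2 CPM untreated, whereas Polr1a, the largest subunit, had 310 and 314 CPM with IAA and 295 and 233 CPM untreated (1.10 ± 0.09, adjusted p = 6.22e-15). Of 30 rRNA processing genes, 16 were called higher and 12 lower in RPB2, and 0 higher and 14 lower in RPB10. Ncl, which encodes nucleolin, was at 1687 and 1715 CPM in RPB10 with IAA and at 2394 and 2313 CPM untreated (-0.56 ± 0.08, adjusted p = 5.97e-08). Wdr43, a subunit of the small-subunit processome, fell to 13.9 and 16.6 CPM in RPB2 with IAA, against 263 and 262 CPM untreated (-3.25 ± 0.13, adjusted p = 1.43e-25).

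Of the 20 genes of nuclear RNA decay and adenylation, 13 were called lower and 5 higher in RPB2, beside 34.0% and 27.9% of all genes, and 5 lower and 1 higher in RPB10, beside 21.2% and 18.2%. Tent4a, a non-canonical poly(A) polymerase of nuclear RNA surveillance, had 1.80 and 2.01 CPM in RPB2 with IAA and 50.1 and 50.01 CPM untreated (-3.85 ± 0.21, adjusted p = 1.12e-20). Exosc1, a subunit of the RNA exosome, had 3.60 and 2.01 CPM with IAA and 53.2 and 53.4 CPM untreated (-3.39 ± 0.23, adjusted p = 1.01e-17). Xrn2, the nuclear 5′ to 3′ exonuclease, had 129 and 125 CPM in RPB10 with IAA and 187 and 177 CPM untreated (-0.61 ± 0.08, adjusted p = 1.78e-08). Over the 13 comparisons 109 of 260 tests of this list (41.9%) were called lower and 16 (6.15%) higher, beside 19.8% and 19.1% of all genes. The lists were chosen with earlier results of these data known, and their counts are not read as support for the features' direction.

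By Pearson correlation of log2(CPM + 1) with the sum of the features over the 52 libraries, CT010467.1 was the most alike of 11617 genes (r = 0.97), followed at a distance by Ddx41 (0.79), Taf10 (0.74), Calr (0.73), Urod, Hars, Bckdha, B3gnt8, Tomm6os and Bcam (0.72 to 0.73). Ddx41, an RNA helicase, had 233 and 241 CPM in RPB2 with IAA and 118 and 116 CPM untreated, and 114 and 122 CPM in RPB10 with IAA and 113 and 120 CPM untreated. Its range is thus far smaller than that of the features. Least alike were Wdr47 (-0.90), Ppm1a, Zfp180, Sp1 and Kat7 (-0.84 each). Sp1, a transcription factor, had 10.8 and 12.6 CPM in RPB2 with IAA and 179 and 145 CPM untreated. Without the RPB2 libraries r was 0.95 for CT010467.1, 0.66 for Ddx41 and -0.82 for Wdr47. Over the 12 libraries of the 0 h and 1 h set Mapt, Nono, Hspa1b, Cx3cl1 and Grb2 were most alike (0.91 to 0.95).

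The difference between the 2 libraries of a group had its own pattern. Over the 26 groups, the replicate 1 minus replicate 2 difference of the sum correlated most with that of CT010467.1 (r = 0.94), Vasp (0.92), Maz (0.91), Esrra (0.90) and Col18a1 (0.89). The longest transcripts of these 5 genes had a median GC content of 58.0% (50.3% to 63.6%), against a median of 49.9% over the genes compared. CT010467.1 among them shares exon bases with Gm42418. Whether base composition has a part in the replicate differences was not tested. Absolute log2 differences of the sum between the 2 libraries of a group ran from 0.02 to 1.44, with a median of 0.30 and the highest in untreated RPB5. These differences are between single libraries in log2(CPM + 1), whereas the summed log2 ratios are of group means in CPM. The features were chosen on these levels, so no line is judged by them.

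Beyond CT010467.1 (48072 counts in all) and the members themselves, the nearest annotated genes gave few or no counts. CT010467.2, a pseudogene 30990 bases below Gm26917, AC188608.1, 71727 bases above Gm42418, and Gm47401, 13735 bases from Gm24187, each had 0 counts in the 64 libraries, and Chrm3, a muscarinic receptor gene 40960 bases from Gm24187, had 58.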

How the data were processed

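RNA was sequenced from mouse embryonic stem cells, and the deposited table holds raw read counts per gene, made by the authors; per the submitters' processing notes the tools were featureCounts, STAR, cutadapt 1.18, DESeq2, Bowtie2, deepTools and SAMtools, and the builds mm10 and dm6. The sources used here do not give the strand setting, the treatment of multi-mapping reads and overlapping genes, or the order of those tools. A Drosophila S2 spike-in named in the labels was not analysed here, and 4 columns that match no sample were not used. Samples were grouped by line and treatment as labelled.

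Counts were divided by all counts of the library and multiplied by 1000000 (CPM). Members were matched by their GENCODE M21 symbol; 55154 of 55335 IDs had one. A log2 ratio is that of group mean CPM, and the members got no test. Other genes were tested with edgeR 4.0.16 in R 4.3.3 (quasi-likelihood test, TMM, filterByExpr, Benjamini-Hochberg adjustment, threshold 0.05). The 52 libraries of the 12 h set (17928 genes) and the 12 libraries of the 0 h and 1 h set (15658 genes) were fitted apart. A like fit was run on simulated data in which few genes changed, equally up and down. That run does not check comparisons in which many genes moved, as in RPB2. The p-values rest on the spread among the sequenced libraries alone, which may be technical. Sequences were compared with blastn 2.17.0. Correlations used log2(CPM + 1) and genes with a mean of at least 5 CPM. Named list genes are up to 4 per list with the smallest adjusted p in RPB2 and in RPB10, and like genes are those with the highest and lowest correlation. Members and lists were chosen with earlier results of these data known. Alternatives were other scalings, no count filter, DESeq2 1.42.0, a replicate block, fits of 4 libraries and leaving out each library.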

Additional observations from a re-analysis of the deposited data

Results flagged for a closer look

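The sum of the 3 features moved in opposite directions in different lines after 12 h of IAA, and whether the lines differ in this was not tested. Both IAA libraries lay above both untreated libraries in 7 lines, with log2 ratios of 6.06 in RPB2, 2.98 in RPB8, 2.74 in RPB7, 1.83 in RPB1, 1.69 in RPB3, 1.57 in RPB9 and 1.12 in RPB6. Both lay below in RPB10, with a log2 ratio of -0.89, and in RPB12, with a log2 ratio of -0.12 and only a narrow gap between 447 CPM with IAA and 448 CPM untreated. In WT cells, without a degron, the log2 ratio was -0.55 with overlapping groups.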

How the results depend on the processing

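The replicate block, the mean of log2(CPM + 1) and a total without the members kept the direction of the summed log2 ratio in all 16 comparisons. Leaving out 1 library turned it in RPB5 (0.55 without untreated replicate 2, against -0.35) and in RPB4 (-0.07 without IAA replicate 2 and -0.11 without untreated replicate 2, against 0.10), both with overlapping groups, and in no other comparison. Scaled to mitochondrial mRNA counts it turned to -0.23 in RPB6 and was 1.09 in RPB1, 4.69 in RPB2, 2.49 in RPB3, 2.24 in RPB7, 1.59 in RPB8, 1.34 in RPB9 and -1.24 in RPB10, and 1.54, 0.38 and 0.43 in RPB1, RPB3 and RPB6 at 1 h. With TMM it was 6.92 in RPB2, 1.74 in RPB6, 2.65 in RPB7 and 0.30 in RPB3 at 1 h, and with RLE factors 7.16, 1.85, 2.68 and 0.30 in the same order. Gm26917 alone gave 2.89 in RPB7, and Gm42418 alone gave 5.41 in RPB2, 2.20 in RPB7, 1.38 in RPB9 and -0.02 in RPB4. Gm24187 alone gave the opposite sign in RPB12 (0.17), RPB5 (0.05) and RPB1 at 1 h (-0.28), and -1.56 in WT, 3.52 in RPB1, 7.16 in RPB2, 4.19 in RPB3, 4.24 in RPB6, 3.49 in RPB7, 6.20 in RPB8, 3.72 in RPB9, -0.21 in RPB10, 1.80 in RPB11, and 0.93 and 0.17 in RPB3 and RPB6 at 1 h. The cause was not tested. Genes called over all genes, 295 in WT, were 178 with the replicate block and 1060 with only the 4 libraries of the comparison. In RPB4 (373) these were 223 and 667. With only 4 libraries they were 3909 in RPB7 (7406), 1890 in RPB11 (4240), 2021 in RPB12 (858), 17 in RPB3 at 1 h (56) and 488 in RPB6 at 1 h (241). RPB6 at 1 h had 691 with the replicate block and 815 with no filter, RPB3 at 1 h 166 with no filter, and RPB1 at 1 h 2554 with DESeq2 (3894). Leaving out 1 library gave 92 to 112 in WT, 140 to 193 in RPB4, 2711 to 3597 in RPB11, 397 to 460 in RPB12, 1380 to 2706 in RPB1 at 1 h, 29 to 240 in RPB3 at 1 h and 2 to 423 in RPB6 at 1 h. Calls over the 13 comparisons were 19 for annotated rRNA (12) and 74 for mitochondrial mRNAs (48) with no filter, and 116 for other RNAs without a poly(A) tail (192) and 5 for primitive endoderm markers (9) with DESeq2. Samples of the same replicate number did not deviate together (correlations from -0.15 to 0.06), so the numbers were not taken as pairs; with the block CT010467.1 was called lower in 0 comparisons, and crossing the numbers in RPB7, chosen after seeing the data, gave 6840 calls. Gm24187 had 8 to 49 counts in untreated libraries, which limits its ratios.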
